A study of Homo sapiens with 21 samples.

Results

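The genes described here are 9 components of the tight junction, chosen by name and matched by symbol to 9 of the 23201 genes in the RNA-seq table. They were the claudin genes CLDN1, CLDN4 and CLDN7, the MARVEL-domain genes OCLN (occludin) and MARVELD2 (tricellulin), the junctional adhesion molecule gene F11R (JAM-A), and the scaffold genes TJP1 (ZO-1), TJP3 (ZO-3) and CGN (cingulin). RNA was sequenced from HMLE cells, human mammary epithelial cells immortalized with telomerase and the SV40 large T antigen, a background that all groups share. Cells were left untreated or were exposed to TGFβ, a cytokine that drives epithelial to mesenchymal transition (EMT), and were collected after 1, 4, 7, 10, 15 and 20 days. Every timepoint had 3 libraries, described as biological triplicates, which gave 21 libraries of 18847917 to 22667754 reads each. All 6 treated days were compared with the same 3 untreated libraries, so these comparisons are not independent of one another. There was no untreated group at the later days, so days of TGFβ and days in culture cannot be told apart.

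Tight junctions seal the space between neighbouring epithelial cells and separate the apical from the basolateral membrane. Claudins form the paracellular barrier and its pores, occludin and tricellulin sit beside them where pairs and triplets of cells meet, and JAM-A is an immunoglobulin-type adhesion protein at the same site. The zonula occludens (ZO) proteins and cingulin lie underneath and tie these membrane proteins to the actin and myosin cytoskeleton. Loss of junction proteins is a textbook feature of EMT, and the repressors SNAIL, SLUG and ZEB are known to bind E-box letters in promoters of junction genes, whereas grainyhead-like factors are known as activators of epithelial junction genes.

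The cells carried markers of mammary epithelium. KRT5, a basal mammary keratin, had the most reads of the 8 basal markers before treatment, with a mean normalized read count of 224300 ± 8441 (SD, n = 3). A normalized read count here is the number of reads of a gene divided by a size factor of its library. Of the 8 luminal markers, KRT8 had the most reads, with a mean of 7955 ± 465.8 in untreated cells, KRT18 had 7357 ± 351.9, and PGR and KIT had no read in any library. The fibroblast markers DCN and LUM, the endothelial markers CDH5 and CLDN5 and the leukocyte markers PTPRC and CD3E had at most 3 reads in every library. The fibroblast marker with the most reads over all days, COL1A1, which cells in EMT are also known to express, went from 461.5 ± 15.63 in untreated cells to 28230 ± 1193 on day 20. THY1, another of the 8 fibroblast markers, had more reads than COL1A1 in untreated cells (1375 ± 33.94). The endothelial marker with the most reads, KDR, had 42.1 ± 8.63 in untreated cells, 156.6 ± 99.0 on day 7, 2.94 ± 0.95 on day 10 and 263.1 ± 10.3 on day 15. The leukocyte marker with the most reads, CD68, had 370.5 ± 3.08 in untreated cells, 803.3 ± 15.96 on day 4, 627.3 ± 74.0 on day 7, 379.6 ± 33.2 on day 10 and 753.1 ± 26.2 on day 15 (SD, n = 3 each). On day 20 CD68 had 648.2 ± 22.1. Of the other endothelial and leukocyte markers, PECAM1 had 42 to 51 reads in untreated libraries and a mean of 12.24 on day 20, TIE1 had means of 0.58 in untreated cells and 47.2 on day 20, and LYZ had at most 27 reads in any library. The part of these markers in the results was not tested. As these are bulk libraries, fewer cells with a transcript and less transcript per cell cannot be told apart.

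One library stood apart from its group. The third of the 3 day 7 libraries differed from the others of its day by a root mean square log2 difference of 0.472 and 0.457 over the genes, while all other pairs of libraries of one timepoint lay between 0.214 and 0.243. It was about as far from the mean of day 4 (0.427) and of day 20 (0.431) as from that of its own day (0.451). Results for day 7 that moved most are therefore also given without it. The tests described further on use 1 spread per gene over all timepoints, so this library also enters the standard errors (SE) of other days. Without it, the SE of the day 7 change fell from 0.32 to 0.11 for CLDN1 and from 0.14 to 0.08 for MARVELD2. It fell from 0.07 to 0.03 for F11R and from 0.08 to 0.03 for TJP1. It was 0.10 either way for CLDN4 and rose for CLDN7, OCLN, TJP3 and CGN.

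As promoter sequence bears on the regulators described further on, stretches before annotated transcript starts were taken from RefSeq (GRCh38.p14) for 6 members with a match before a start. Windows of 250 bases before to 50 bases after a start were available for 8 of the 9 members, and F11R was named only. Both strands were searched for an E-box (CAGGTG or CACCTG) and for the letters AACCGG or CCGGTT, which form part of the grainyhead-like recognition sequence. No match of one motif overlapped a match of the other in the members' windows, and capitals mark the matches in the stretches that follow. A match is a description of the letters and not evidence of binding.
CLDN1, chr3:190322532-190322591, minus strand: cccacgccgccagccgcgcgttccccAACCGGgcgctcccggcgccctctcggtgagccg
CGN, chr1:151511269-151511328, plus strand: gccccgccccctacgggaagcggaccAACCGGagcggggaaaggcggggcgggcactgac
OCLN, chr5:69492700-69492745, plus strand: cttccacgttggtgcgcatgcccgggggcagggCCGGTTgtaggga
CLDN7, chr17:7262602-7262626, minus strand: acgacttCCGGTTCAGGTGagtgtc
TJP3, chr19:3721677-3721736, plus strand: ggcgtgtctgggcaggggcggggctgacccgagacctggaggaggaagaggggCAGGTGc
TJP1, chr15:29969104-29969163, minus strand: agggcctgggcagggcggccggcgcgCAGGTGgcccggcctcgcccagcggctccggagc
The grainyhead-like letters stood in windows of 5 of the 8 members (CLDN1, CLDN7, OCLN, MARVELD2 and CGN), which is 62.5%, against 8.65% of the 27305 genes with a window and 13.7% of the 9253 genes tested that had one. An E-box stood in windows of 4 of the 8 (CLDN7, OCLN, TJP1 and TJP3), which is 50%, against 24.1% of the genes with a window. The match of MARVELD2 lay after the start and is not printed. In CLDN7 the 2 motifs were adjacent, as the stretch shows, and one of its 2 windows held 5 E-boxes. The E-box of TJP3 began 7 bases before one of its 2 annotated starts and that of TJP1 began 88 bases before one of its 4 annotated starts. CLDN4 had neither motif in its window.

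To ask how the junction genes changed during the time course, each treated day was compared with untreated cells by limma on log2(value + 1), with Benjamini-Hochberg adjusted p-values over 13343 genes and calls at an adjusted p below 0.05. The 13343 were those with a mean value of at least 10. CLDN1, OCLN, TJP3 and CGN were lower on all 6 treated days, a pattern shared by 8.26% of all genes tested. TJP1 was higher on all 6 days, as were 14.3% of all genes. CLDN4 was lower from day 7 onward, and F11R was higher on 4 of the days. CLDN7 and MARVELD2 were higher on some days and lower on others, as were 28.7% of all genes. All 9 members passed the filter on low values, TJP3 only because of its reads in untreated cells, so it had to be lower in treated cells and its calls are given as a description.

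**Figure D1:**
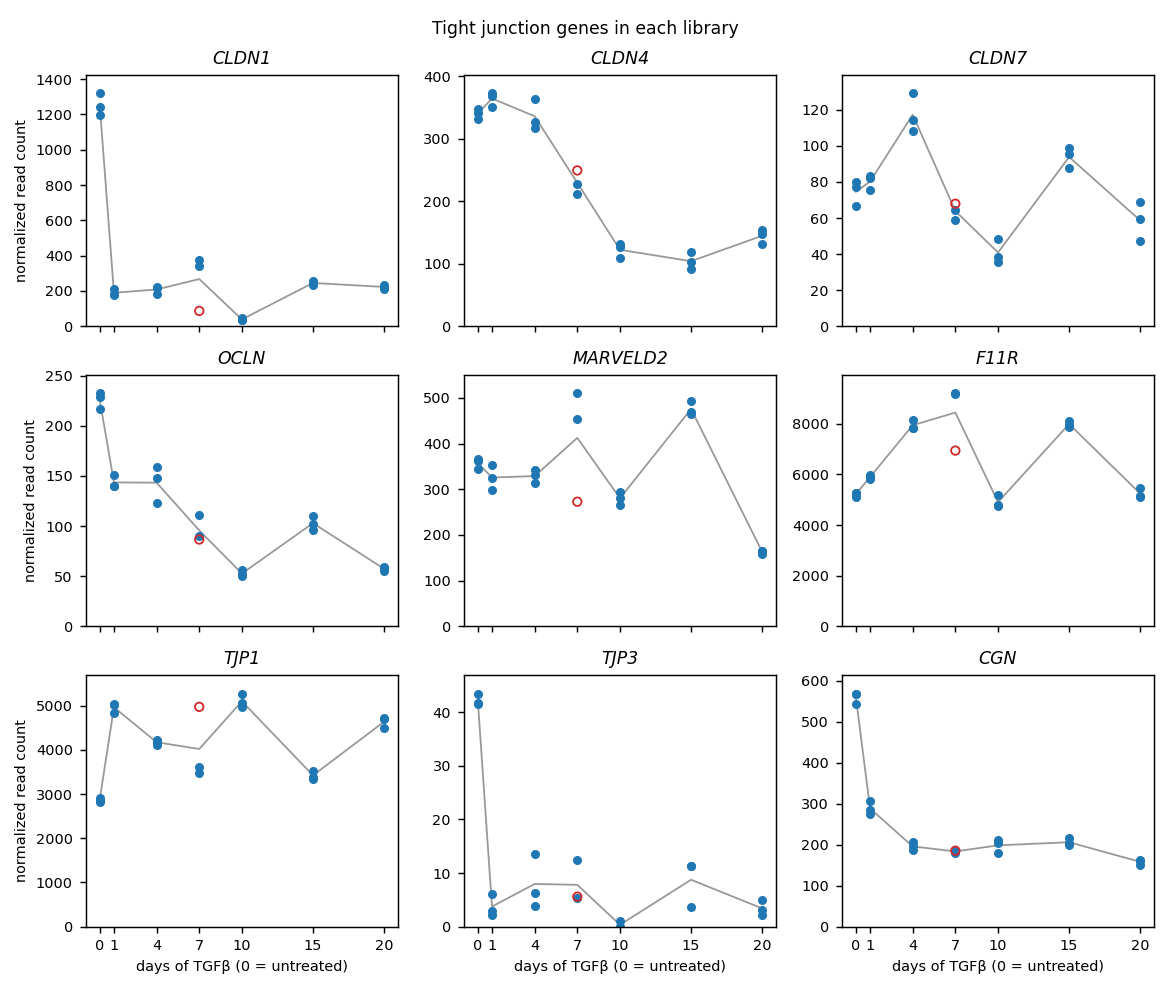
Normalized read count (y axis, from 0) of each tight junction gene in each library against days of TGFβ (x axis, 0 = untreated). Points are libraries, lines join the means of 3 libraries and the open red circle is the third day 7 library. CLDN1 and TJP3 drop within 1 day, CLDN4 drops between days 4 and 10, and F11R is highest on days 4, 7 and 15.

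By day, 2 members were higher and 4 were lower on day 1, beside 31.3% and 28.5% of all genes tested. On day 4, 3 were higher and 4 lower (36.9% and 35.3% of all genes). For day 7 the counts were 2 higher and 5 lower (34.6% and 32.6%), and 3 higher without the third library, as MARVELD2 was then called. Day 10 had 1 member higher and 7 lower (37% and 30.7%). On day 15, 4 were higher and 5 lower (39.2% and 37.3%), and on day 20, 1 was higher and 7 lower (32.5% and 30.2%). The median log2 change of the 9 members was -0.14 on day 1, -0.12 on day 4, -0.57 on day 7, -1.47 on day 10, -1.13 on day 15 and -1.23 on day 20, while the median over all genes stayed between 0.00 and 0.03. With libraries scaled instead to the same total, the median over all genes moved to between -0.20 and -0.14, and higher genes made up 26.7% to 39.1% of all calls by day, against 51.1% to 54.6% as deposited. Against that lower median, F11R on day 1 was -0.02 and MARVELD2 on day 7 was -0.04, while CLDN1, OCLN, TJP3 and CGN stayed lower and TJP1 stayed positive on every day. Only 1 member was then called higher on day 15, in place of 4.

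**Figure D2:**
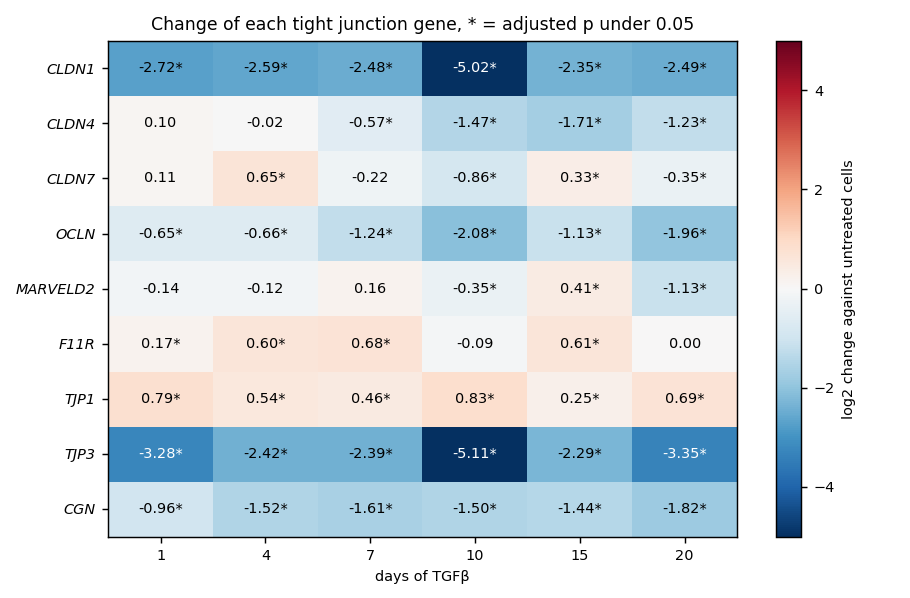
Log2 change of each tight junction gene (rows) on each treated day (columns) against untreated cells, from limma on log2(value + 1), with red for higher and blue for lower. A star marks an adjusted p below 0.05. CLDN1 and TJP3 have the lowest values, -5.02 and -5.11 on day 10, and TJP1 is positive on each day. TJP3 had at most 1 read per library on day 10, so its value there rests on the added count of 1.

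Of the 3 claudins among the members, CLDN1, a barrier-forming claudin, had the lowest log2 changes. Its normalized counts were 1321, 1195 and 1244 in the 3 untreated libraries, 208.1, 182.6 and 177.6 on day 1, and 218.8, 221.0 and 184.1 on day 4. On day 7 they were 373.6, 340.9 and 86.6, and on day 10 they were 48.8, 34.0 and 32.3. The counts were then 233.6, 256.0 and 245.5 on day 15 and 209.9, 223.1 and 234.0 on day 20. No treated library overlapped the untreated ones, and the 3 day 10 libraries lay below all others. Its log2 change was -2.72 (SE 0.32, adjusted p = 2.4e-07, limma) on day 1, which is 6.61-fold lower, and -5.02 (SE 0.32, adjusted p = 9.73e-12) on day 10, which is 32.7-fold lower. On days 4, 7, 15 and 20 the log2 change lay between -2.59 and -2.35. In the order of its levels, untreated cells stood above and day 10 below the rest, and the neighbours from day 7 (267.0 ± 157.1) to day 1 (189.4 ± 16.4) did not differ beyond their spread. Without the third day 7 library the mean of day 7 was 357.2, the change against untreated cells was -1.81 (SE 0.11, adjusted p = 2.21e-17) and day 7 was above day 4 by 0.78 on the log2 scale (adjusted p = 2.31e-07), a difference of 0.10 (adjusted p = 0.809) with it. When that library was left out, day 7 also stood above day 15, its neighbour in the order, by 0.54 (adjusted p = 0.0001, limma).

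CLDN4, a claudin of simple epithelia and the receptor of a clostridial enterotoxin, was not separated from untreated cells until day 7. It had 332.0, 341.0 and 348.3 normalized counts in untreated cells, 369.2, 351.8 and 373.1 on day 1 and 327.1, 364.2 and 317.2 on day 4. The values were 212.1, 227.3 and 249.4 on day 7, 126.4, 132.2 and 108.5 on day 10, 90.8, 102.2 and 119.1 on day 15, and 153.7, 148.4 and 132.2 on day 20. All 12 libraries from day 7 onward lay below all untreated libraries. Against untreated cells it changed by 0.10 on the log2 scale (SE 0.10, adjusted p = 0.40, limma) on day 1 and by -0.02 (adjusted p = 0.862) on day 4, then -0.57 (SE 0.10, adjusted p = 3.13e-05) on day 7, -1.47 on day 10, -1.71 (adjusted p = 9.46e-13) on day 15 and -1.23 on day 20. Its lowest mean was on day 15 and the mean of day 10 was next, and these neighbours, whose libraries overlapped, differed by 0.24 on the log2 scale (adjusted p = 0.0333), a call lost with edgeR (adjusted p = 0.0726), DESeq2 (0.113) and total scaling (0.129).

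CLDN7, which is known to lie along the lateral membrane of breast epithelium, moved in both directions. Untreated libraries had 66.8, 79.7 and 77.2 normalized counts, day 4 had 114.6, 108.1 and 129.2, and day 10 had 35.8, 48.6 and 38.1. These 3 groups did not overlap. These gave log2 changes of 0.65 (SE 0.14, adjusted p = 0.000319, limma) on day 4 and -0.86 (SE 0.14, adjusted p = 1.45e-05) on day 10. Values of 87.7, 98.6 and 95.3 on day 15 gave 0.33 (adjusted p = 0.0376), and 68.9, 47.4 and 59.7 on day 20 gave -0.35 (adjusted p = 0.0338). The day 20 libraries overlapped the untreated ones, and each of the calls of days 15 and 20 was lost when any one of 4 libraries was left out (adjusted p of at most 0.147 for day 15 and 0.219 for day 20) and with DESeq2 (0.059 and 0.0853). Both were also lost with no filter (adjusted p = 0.0629 and 0.0581, limma). That of day 15 was lost with total scaling (0.17, adjusted p = 0.267) and with quantile normalization (0.17, adjusted p = 0.292). On days 1 and 7 CLDN7 had means of 80.2 ± 4.32 and 63.9 ± 4.47 against 74.6 ± 6.88 in untreated cells, with adjusted p = 0.528 and 0.177, and day 7 was called lower with total scaling (-0.41, adjusted p = 0.014).

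Levels of the claudins were compared with one another per kb of the longest annotated transcript, over the 23 claudins with a row and a length. CLDN1 made up 39.9% ± 1.5 of their summed level in untreated cells, 8.12% ± 0.764 on day 1 and 2.24% ± 0.54 on day 10 (SD, n = 3). CLDN12, a widely expressed claudin outside the 9 members, had 37.3% ± 0.766 in untreated cells and 76.8% ± 1.01 on day 10. The summed level per kb was 902.6 ± 11.8 in untreated cells, 492.4 ± 8.62 on day 10 and 533.7 ± 5.43 on day 20. CLDN12 itself was higher on day 1 (log2 change 0.25, adjusted p = 4.95e-05, limma), day 4 (0.57, adjusted p = 1.51e-10) and day 10 (0.17, adjusted p = 0.00163), of which days 1 and 10 were lost with total scaling. On day 20, with a share of 63.8% ± 2.09, its log2 change was 0.02 (adjusted p = 0.74), and with total scaling it was called lower on days 7, 15 and 20 (-0.22, -0.18 and -0.18). CLDN15, a claudin that forms cation channels, took 4.64% ± 0.655 in untreated cells and 15.9% ± 1.34 on day 15.

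**Figure D3:**
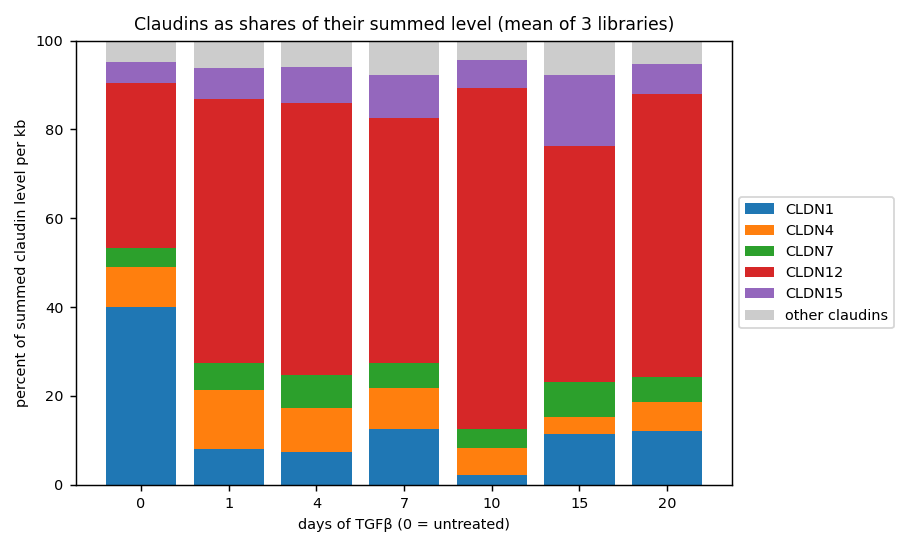
Shares of the summed claudin level per kb of transcript (y axis, percent, mean of 3 libraries) by days of TGFβ (x axis, 0 = untreated). CLDN1 and CLDN12 have similar shares in untreated cells (39.9% and 37.3%), and CLDN12 alone exceeds the other claudins together on every treated day.

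Of the MARVEL genes, OCLN was lower than in untreated cells on every day, while MARVELD2 was lower on days 10 and 20 and higher on day 15. OCLN, which encodes occludin, had 232.3, 216.3 and 228.6 normalized counts in untreated cells and 140.2, 139.5 and 150.8 on day 1. It had 49.8, 52.5 and 55.7 on day 10, 102.0, 110.4 and 96.3 on day 15, and 59.4, 57.9 and 54.8 on day 20. Treated and untreated libraries did not overlap on any day, and the day 15 libraries lay above those of days 10 and 20. Relative to untreated cells OCLN changed by -0.65 on the log2 scale (SE 0.11, adjusted p = 3.15e-05, limma) on day 1, -2.08 (SE 0.11, adjusted p = 4.28e-13) on day 10 and -1.96 on day 20, with means of 143.2 ± 18.3 on day 4 and 95.7 ± 13.2 on day 7. OCLNP1, a partial copy of the gene, had at most 5 reads in any library, and how reads common to both were assigned is not given in the sources used here. OCLN also overlaps an antisense gene in GENCODE v29, and reads of the pair cannot be told apart where strand was not used in counting.

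MARVELD2, which encodes tricellulin, the protein of contacts between several cells, had 365.8, 362.2 and 345.3 normalized counts in untreated cells. Its values were 492.7, 468.5 and 465.1 on day 15 and 159.0, 165.2 and 165.5 on day 20, with no overlap between these groups. Log2 changes were 0.41 (SE 0.14, adjusted p = 0.0105, limma) on day 15 and -1.13 (SE 0.14, adjusted p = 3.53e-07) on day 20. With total scaling the call of day 15 was lost (0.25, adjusted p = 0.0968) and MARVELD2 was called lower on day 1 (-0.33, adjusted p = 0.035) and day 4 (-0.32, adjusted p = 0.0384). On day 10, with 265.7, 281.8 and 293.4, it was -0.35 (adjusted p = 0.0287), a call lost when any one of 4 libraries was left out (adjusted p of at most 0.0885). These day 10 libraries lay below all untreated ones, and the spread behind this call takes in the third day 7 library. The result of day 7 depended on the third library. The values there were 509.7, 454.6 and 272.7, so that 2 libraries lay above and 1 below all untreated ones. There the log2 change was 0.16 (adjusted p = 0.328) with all 3 and 0.43 (SE 0.08, adjusted p = 7.65e-06) without the third.

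F11R had the highest level of the 9 members per kb of transcript, 1081 in untreated cells beside 361.6 for TJP1 and 360.0 for CLDN1. JAM-A, its product, is an adhesion protein that is known to help junctions assemble. Normalized counts were 5268, 5124 and 5281 in untreated cells, 8130, 7849 and 7843 on day 4, 9185, 9200 and 6940 on day 7, and 7960, 7882 and 8124 on day 15. They were 4772, 5193 and 4745 on day 10 and 5154, 5117 and 5453 on day 20. The libraries of days 4, 7 and 15 lay above all untreated ones, while those of days 10 and 20 overlapped them. F11R changed by 0.60 on the log2 scale (SE 0.07, adjusted p = 9.71e-08, limma) on day 4, 0.68 on day 7 and 0.61 on day 15, against -0.09 (adjusted p = 0.245) on day 10 and 0.00 (adjusted p = 0.963) on day 20. Without the third day 7 library the change on day 7 was 0.82. With total scaling F11R was called lower on days 10 (-0.32, adjusted p = 0.000206) and 20 (-0.20, adjusted p = 0.0121), and day 10 was also called with quantile normalization (-0.30, adjusted p = 0.00129), in a fit of only these 2 groups (-0.09, adjusted p = 0.0173) and without the third day 7 library (-0.09, adjusted p = 0.00723). Day 1, with 5889, 5982 and 5814, gave 0.17 (adjusted p = 0.0353), which was lost when any library of day 1 or of untreated cells was left out and was -0.02 with libraries scaled to the same total. These day 1 libraries lay above all untreated ones. The spread behind this call takes in the third day 7 library, without which the SE of the day 7 change was 0.03.

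The 3 scaffold genes went different ways. TJP1, whose product ZO-1 binds claudins, occludin and actin, rose. It had 2921, 2830 and 2872 normalized counts in untreated cells, 5035, 5015 and 4847 on day 1, and 5056, 4970 and 5276 on day 10. On day 15 the counts were 3392, 3532 and 3344, and on day 20 they were 4487, 4700 and 4728. All treated libraries lay above all untreated ones, with day 15 the lowest of the treated groups. Its log2 changes were 0.79 (SE 0.08, adjusted p = 2.38e-08, limma) on day 1, 0.83 (adjusted p = 7.97e-09) on day 10, 0.25 (adjusted p = 0.00696) on day 15 and 0.69 on day 20. With libraries scaled to the same total, the day 15 value was 0.09 (adjusted p = 0.315). On day 4 the mean was 4174 ± 58.3, and on day 7 the values were 3611, 3475 and 4975, of which the third library again stood apart, with a log2 change of 0.46 with it and 0.30 without it.

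TJP3, whose product ZO-3 is restricted to epithelia, fell to a few reads. It had 47, 49 and 44 reads in the untreated libraries, and 2, 6 and 3 on day 1. On day 10 the reads were 0, 0 and 1, on day 15 they were 11, 4 and 11, and on day 20 they were 3, 2 and 5. No treated library had more than 14 reads. TJP3 changed by -3.28 on the log2 scale (SE 0.49, adjusted p = 6.09e-06, limma) on day 1 and -2.29 (SE 0.49, adjusted p = 0.000229) on day 15, where the added count of 1 understates changes of low genes. For day 10 the ratio of untreated to treated reads was 129-fold, with an exact 95% interval of 22.8 to 5140 that covers counting error only. TJP3 remained called on each day when genes were not filtered on low values.

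CGN, which encodes cingulin, a cytoplasmic partner of the ZO proteins and of myosin, fell by day 1 and again by day 4. Its normalized counts were 544.6, 569.1 and 568.9 in untreated cells, 283.4, 273.8 and 307.6 on day 1, and 195.6, 205.5 and 186.0 on day 4. They stayed between 149.4 and 215.5 in all later libraries, far below the untreated range. CGN changed by -0.96 on the log2 scale (SE 0.07, adjusted p = 2.66e-10, limma) on day 1 and -1.82 (SE 0.07, adjusted p = 3.38e-15) on day 20. The third day 7 library, with 185.2 beside 184.7 and 180.4, did not stand apart for this gene.

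Between neighbouring treated days, 8 of the 9 members were called from day 7 to day 10 and again from day 10 to day 15. Over all genes tested, day 10 libraries had a root mean square log2 difference of 0.397 to 0.414 from the mean of day 1. It was 0.751 to 0.785 from that of day 7 and 0.961 to 0.993 from that of day 15. Anything else shared by the libraries of a day cannot be told apart from the day. From day 1 to day 4, 2 were higher (CLDN7 and F11R) and 2 lower (CGN and TJP1), beside 32.9% and 32% of all genes. From day 4 to day 7, 0 were higher and 3 lower (CLDN4, CLDN7 and OCLN), beside 25.5% each way, and without the third day 7 library CLDN1, MARVELD2 and F11R were higher (0.78, 0.55 and 0.21 on the log2 scale) and TJP1 also lower (-0.24). From day 7 to day 10, TJP1 was higher, CGN was not separated (adjusted p = 0.186) and the other 7 members were lower, beside 36.2% and 35.2% of all genes. The step of CLDN7 was lost with quantile normalization (-0.22, adjusted p = 0.171) and that of MARVELD2 in a fit of only the 2 groups (adjusted p = 0.0708). The step of CLDN1 was -2.53 on the log2 scale with the third day 7 library and -3.21 without it. From day 10 to day 15, 6 were higher (CLDN1, CLDN7, OCLN, MARVELD2, F11R and TJP3) and 2 lower (CLDN4 and TJP1), beside 39.3% and 40.5%. The CLDN4 step of -0.24 was lost when any one of 4 libraries was left out (adjusted p of at most 0.206), with edgeR and with DESeq2. From day 15 to day 20, 2 were higher (CLDN4 and TJP1) and 5 lower (CLDN7, OCLN, MARVELD2, F11R and CGN), beside 37.7% and 36.3%.

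The proliferation markers also varied between days. Their summed normalized count over 10 genes was 58460 ± 1204 in untreated cells, 34640 ± 849.4 on day 4, 44220 ± 6665 on day 7 and 19520 ± 201.4 on day 15, the days of high F11R, and 46870 ± 1019, 52000 ± 504.0 and 56780 ± 1065 on days 1, 10 and 20 (SD, n = 3 each). All 10 were lower on days 4 and 15, beside 35.3% and 37.3% of all genes. On day 7, 9 were lower and TYMS was higher, beside 32.6% lower and 34.6% higher. On days 1, 10 and 20, 6, 3 and 4 were lower, beside 28.5%, 30.7% and 30.2%, and TYMS was higher on days 10 and 20. In the third day 7 library, where F11R and MARVELD2 were lower than in the other day 7 libraries, the sum was 51900 beside 39930 and 40830. Their part in the changes of the junction genes was not tested.

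Ratios between related members within a library do not depend on how libraries are scaled, apart from the added count of 1. The 5 ratios are given as a description, with no test, for the 3 untreated and the 18 treated libraries, since treated libraries of one day lay close together and are not 18 independent values. The CLDN1 to CLDN4 ratio had a mean log2 value of 1.88 (range 1.81 to 1.99) in untreated and -0.25 (range -1.93 to 1.35) in treated libraries, a difference of -2.12. For CLDN1 to CLDN7 the means were 4.06 and 1.17, a difference of -2.88. The OCLN to MARVELD2 ratio went from -0.66 to -1.75, a difference of -1.09, and the TJP1 to TJP3 ratio went from 6.05 to 9.79, a difference of 3.73, which was 2.41 with an added count of 10. None of these 4 ratios overlapped between untreated and treated libraries, where TJP3 was among the genes tested only because of its untreated reads. The CLDN4 to CLDN7 ratio, 2.18 in untreated and 1.42 in treated libraries, overlapped between the groups.
By day, the CLDN1 to CLDN4 ratio was lowest on day 10 (-1.67 ± 0.29) and closest to the untreated value on day 15 (1.24 ± 0.17, SD, n = 3). The CLDN4 to CLDN7 ratio was still 2.17 ± 0.10 on day 1 and was lowest on day 15 (0.14 ± 0.16). The OCLN to MARVELD2 ratio was -1.17 ± 0.14 on day 1, -2.39 ± 0.01 on day 10 and -1.49 ± 0.08 on day 20, when both genes were low.

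**Figure D4:**
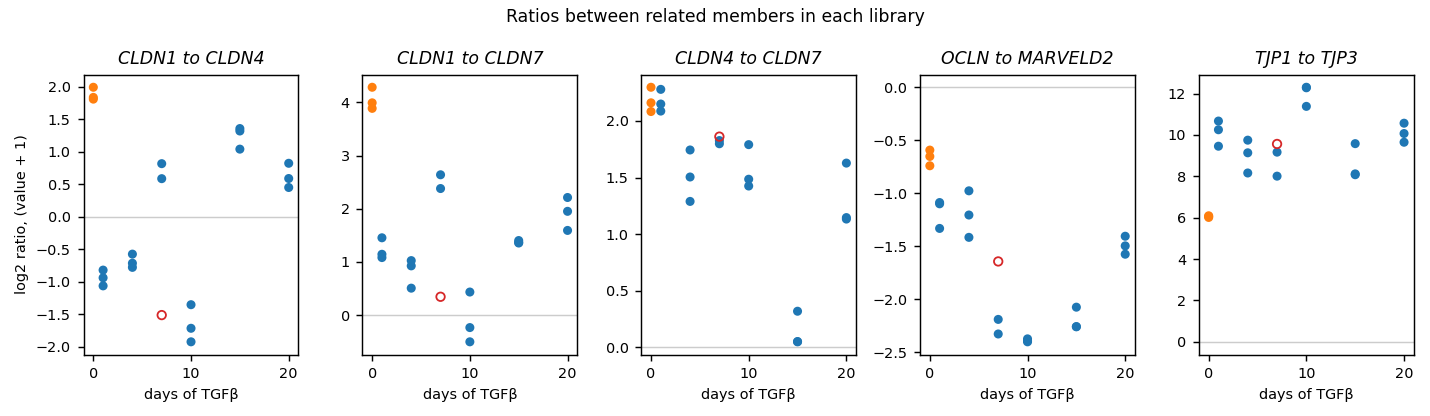
Log2 ratios between pairs of related tight junction genes (y axis, computed as log2(value + 1) of the first minus the second) in each library by days of TGFβ (x axis). Orange points are untreated libraries, blue points are treated libraries and the open red circle is the third day 7 library. Treated libraries overlap the untreated ones only for CLDN4 to CLDN7.

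The other genes of the junction were described from a list of 48, of which 47 were in the table and 27 passed the filter on low values. Of the 27, 11 were higher and 4 lower on day 1, 14 and 6 on day 4, 14 and 4 on day 7, 9 and 9 on day 10, 17 and 4 on day 15, and 8 and 8 on day 20, beside the shares of all genes given above for these days. With total scaling the balance of day 1 turned to 6 higher and 12 lower, and 16 were lower on each of days 10 and 20. CLDN14 and CLDN9, with untreated means of 1.603 and 9.507, passed the filter only through treated libraries and are among the 27, so these counts and medians are a description. The median log2 change of the 27 was 0.07, 0.37, 0.23, -0.05, 0.36 and -0.08 on these days in order. Among the adhesion proteins, CXADR, the coxsackievirus and adenovirus receptor of the junction, fell from a normalized count of 290.3 in untreated cells to 48.95 on day 1 and 18.9 on day 10 (log2 change -3.89, SE 0.25, adjusted p = 1.08e-11, limma). JAM3, a relative of F11R, was higher on each day (on day 4 by 0.27, adjusted p = 0.0363, lost under 6 of the other settings) and had 77.1 in untreated cells and 245.1 on day 20 (log2 change 1.66, SE 0.11, adjusted p = 3.14e-11). F11R was at 0.00 on the log2 scale on that day (adjusted p = 0.963).

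MARVELD3, another tight junction protein with a MARVEL domain, was lower on each day (on day 1 by -0.37 on the log2 scale, a call lost without 1 library, adjusted p = 0.0895), with 278.2 in untreated cells and 101.4 on day 20 (log2 change -1.45, SE 0.12, adjusted p = 1.28e-09, limma). The scaffold gene MPDZ (MUPP1) was higher on each day (on day 1 not with libraries scaled to the same total), with 130.8 in untreated cells and 302.9 on day 20 (log2 change 1.2, SE 0.11, adjusted p = 3.1e-09), whereas its relative PATJ, listed under the older symbol INADL, had means between 956.8 on day 20 and 1631 on day 4.

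Of the 10 signalling genes of the junction, 5 were higher and 2 lower on day 1, beside 31.3% and 28.5% of all genes. The counts were 6 and 1 on day 4 (36.9% and 35.3%) and 7 and 1 on day 7 (34.6% and 32.6%). They were 5 and 1 on day 10 (37% and 30.7%), 9 and 1 on day 15 (39.2% and 37.3%), and 5 and 1 on day 20 (32.5% and 30.2%). ARHGEF18, a RhoA exchange factor, was higher on each day, between 0.87 and 1.14 on the log2 scale (SE 0.05). WNK4, a kinase known to act on claudins, had 25.3 normalized counts in untreated cells, 109.1 on day 4 and 189.0 on day 15 (log2 change 2.88, SE 0.25, adjusted p = 1.07e-09, limma). AMOTL2, an angiomotin-like protein, reached 3705 on day 15 from 1573 (log2 change 1.24, SE 0.09, adjusted p = 2.81e-11). CLDN15 had 89.4 in untreated cells and 212.7 on day 15 (log2 change 1.25, SE 0.14, adjusted p = 4.14e-08), and 67.7 on day 10 (-0.39, adjusted p = 0.0176, lost with quantile normalization, adjusted p = 0.0849, and without either of 2 libraries). WNK4, AMOTL2 and CLDN15 each had their highest mean on day 15.

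CLDN8, which the filter on low values removed, was named after its values were seen. It had 12 to 23 reads in each untreated library, 51 in all, and 1 read in the 18 treated libraries together, on day 7. With the floor of 3 reads set per library, it was at least 5.01-fold lower on day 1 and at least 5.21-fold lower on day 10. CLDN22 and CLDN25 had no read in any library, which allows up to 3 reads in each.

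Among known regulators of junction genes, 4 of the 5 repressors passed the filter on low values, ZEB1 only through its treated libraries, and SNAI2, ZEB2 and TWIST1 were higher on every treated day, as was ZEB1, which could be called in no other direction. SNAI2, which encodes SLUG, had a mean normalized count of 1248 ± 84.0 in untreated cells and 6279 ± 26.6 on day 1, when CLDN1, OCLN, TJP3 and CGN were already lower (log2 change 2.33, SE 0.05, adjusted p = 7.93e-20, limma). ZEB1 had 5.71 ± 0.671 in untreated cells, 44.8 ± 9.52 on day 1, 184.7 ± 16.7 on day 10 and 433.1 ± 9.45 on day 20 (log2 change on day 20 of 6.02, SE 0.19, adjusted p = 5.13e-17). SNAI1, which encodes SNAIL, had at most 4 reads in any library. ZEB1 was thus highest on day 20, while SNAI2 had its highest mean on day 4 (8254 ± 127.8). CLDN1, TJP3 and CLDN7 had their lowest means on day 10, and so had OCLN, though its days 10 and 20 were not separated (adjusted p = 0.383). The calls of SNAI2, ZEB2 and TWIST1 held under all the other settings.

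Of 7 epithelial activators, GRHL1, GRHL2, GRHL3 and ELF3 were lower on each day. GRHL2 had 1727 ± 67.8 in untreated cells, 1071 ± 19.96 on day 1, 1100 ± 199.3 on day 7, 585.3 ± 6.77 on day 10, 942.3 ± 46.5 on day 15 and 339.8 ± 16.6 on day 20. CLDN1, CLDN7, OCLN, MARVELD2, F11R and TJP3 were lower on day 10 than on day 7 and higher on day 15. GRHL2, GRHL3, ELF3, OVOL1 and KLF4 were likewise called lower and then higher at these steps, KLF4 while above untreated cells on each day. Of all genes tested, 35.2% were lower at the first step and 39.3% higher at the second, and the share with both is not given. Also called lower and then higher were 5 of the 8 basal markers (CDH1, KRT5, KRT14, KRT17 and TP63) and the luminal markers GATA3, KRT8 and KRT19. KRT17 had means of 136300 ± 70670 on day 7, 13310 ± 807.2 on day 10 and 186700 ± 4734 on day 15, and the part of these markers in the swing of the junction genes was not tested. GRHL3 had a log2 change of -4.34 (SE 0.29, adjusted p = 2.07e-11, limma) on day 10 and ELF3 one of -4.15 (SE 0.20, adjusted p = 7.29e-14). OVOL1 was lower on all days but day 7 (adjusted p = 0.0627) and OVOL2 on all but days 1 and 10 (adjusted p = 0.522 and 0.0523), and these calls moved in both directions with the setting. With edgeR OVOL1 was also lower on day 7 and OVOL2 on day 10, while OVOL2 on day 7 was lost with no filter (adjusted p = 0.0521) and OVOL1 on day 4 without 1 library (adjusted p = 0.0676). KLF4, which is known as an activator in epithelia, was higher on each day and reached a log2 change of 1.84 (SE 0.09, adjusted p = 6.65e-14) on day 15. Of the members with the grainyhead-like letters in a window, CLDN1, CGN and OCLN were lower on each day and CLDN7 and MARVELD2 were not. Of those with an E-box, OCLN and TJP3 were lower on each day, TJP1 was higher and CLDN7 went both ways.

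**Figure D5:**
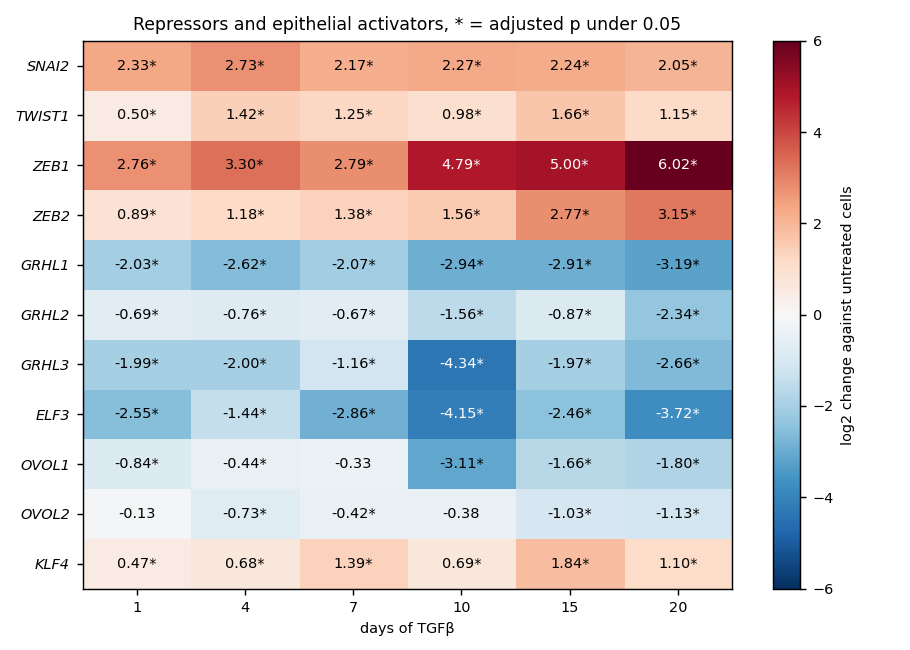
Log2 change of 4 repressors (SNAI2, TWIST1, ZEB1, ZEB2) and 7 epithelial activators (rows) on each treated day (columns) against untreated cells, from limma on log2(value + 1). A star marks an adjusted p below 0.05. The 4 repressors are positive and GRHL1, GRHL2, GRHL3 and ELF3 negative on each day, and KLF4 is positive.

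Finally, the genes whose log2 values ran closest to each member over the 21 libraries were named from 11490 genes with a mean of at least 50, as a description that rests on 7 timepoints. CLDN1 ran closest to OGFRL1 (Pearson r = 0.956) and ALDH3A2 (0.932), CLDN4 to DNMT3B (0.928) and C10orf116 (0.92), and CLDN7 to GRB7 (0.936). OCLN ran closest to DENND1C (0.946) and LLGL2 (0.941), and MARVELD2 to KAZN (0.966) and UST (0.928). For F11R the closest genes were ULK2 (0.983) and ZCCHC11 (0.977), for TJP1 LRRC8C (0.985) and PLEK2 (0.974), for TJP3 METTL7A (0.922) and PIK3C2B (0.92), and for CGN PLEKHH1 (0.951) and COBLL1 (0.948). Among the members themselves, r was highest for CLDN1 with TJP3 (0.89) and lowest for TJP1 with CLDN1 and with TJP3 (-0.84 each). F11R had r between -0.33 (CGN) and 0.65 (MARVELD2) with the other 8.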

How the data were processed

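HMLE libraries were aligned and quantified with STAR 2.7 and Salmon 1.4 on hg19, according to the submitters' processing notes, which give no order or role. The authors deposited 1 normalized signal per gene and library, reads divided by a size factor and rounded to 2 decimals. Whole reads were recovered for 100% of values (tolerance 0.1 reads). The 13343 genes with a mean of at least 10 were tested with limma 3.58.1 (trend) in R 4.3.3 on log2(value + 1), with 1 mean per timepoint and Benjamini-Hochberg adjustment within each comparison. Alternatives were a pseudocount of 10, no filter, total and quantile scaling, fits of only the 2 groups compared, edgeR 4.0.16 (quasi-likelihood) and DESeq2 1.42.0 on recovered reads, and each library left out. On recovered reads edgeR called 3960 genes higher and 4093 lower on day 1, and limma called 4174 and 3804. The fits were tested on simulated data.

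The 9 members, the list of other junction genes, the regulators and markers, and the tests were chosen with earlier results of these data known. Genes named were the 9 members, the regulators, the most abundant marker of each list and those at or under 3 reads, other junction genes with an adjusted p below 0.05, a log2 change of at least 1 and a mean of at least 50 at a timepoint, genes that complete a count, and the 2 genes closest to each member. CLDN8, CLDN12 and INADL were named in addition. A few genes that the rule names are not reported here. PATJ and YBX3 were matched to the older symbols INADL and CSDA through RefSeq, and CLDN34 was not matched. Columns of a timepoint carry no replicate number, so libraries of a group are numbered in column order only. The p-values measure the spread between the libraries of a timepoint. Each gene had 1 spread fitted over all 7 timepoints, so the third day 7 library enters every comparison. Chi-square per degree of freedom between libraries of 1 timepoint was 1.37 to 2.89 without that library, where 1 is counting error. Variation between independent treatments may thus not be covered by the p-values. Lengths are those of the longest coding transcript in GENCODE v29 (GRCh38), and promoter windows are from RefSeq GRCh38.p14. Exact permutation tests had been planned for the 5 ratios and are not reported, since libraries of one treated day are not exchangeable with those of another.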

Additional observations from a re-analysis of the deposited data

Results flagged for a closer look

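CLDN7 and MARVELD2 were higher than untreated cells on one treated day and lower on another, with a tested difference between those days. The genes and days were picked for their opposite calls, so the test of the difference restates those calls. Of all genes tested, 28.7% were higher on at least 1 day and lower on at least 1 other. CLDN7 was 0.65 above untreated cells on day 4 and 0.86 below on day 10 on the log2 scale, and the difference between the 2 days was 1.51 (SE 0.14, adjusted p = 4.91e-09, limma), with all 3 day 4 libraries above all 3 day 10 libraries. MARVELD2 was 0.41 above untreated cells on day 15 and 1.13 below on day 20, and the difference was 1.54 (SE 0.14, adjusted p = 2.14e-09, limma), again with no overlap. The call of MARVELD2 on day 15 against untreated cells was lost with total scaling (0.25, adjusted p = 0.0968). The outlier statistic used for groups of 4 or more was not computed, as each timepoint had 3 libraries.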

How the results depend on the processing

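No paired analysis was possible because replicate numbers are absent from the table. Of the counts and ratios recomputed, 1027 stayed within 1.5 times the count or, for ratios, kept their sign and side of the threshold, 31 counts moved further and the CLDN4 to CLDN7 ratio crossed 0.05 under 4 settings in a permutation test not reported here, and of single-gene comparisons of the members 2684 kept their sign and call, 39 lost a call, 28 gained one and 21 changed sign. The cause of these changes was not tested.

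The number of members higher on day 1 was 1 with no filter, total scaling, quantile normalization or edgeR. With total scaling 1 member was higher on day 15. From day 4 to day 7, 1 was higher with edgeR, and from day 7 to day 10, 2 were higher with quantile normalization. From day 10 to day 15, 1 was lower with total scaling, with only the 2 groups in the fit, with edgeR and with DESeq2. Of the other junction genes, total scaling gave 6 higher and 12 lower on day 1, 8 lower on day 7, 16 lower on day 10 and 16 lower on day 20, and fitting only the 2 groups gave 2 lower on day 7. The treated minus untreated difference of the CLDN4 to CLDN7 log2 ratio was -0.74 with a pseudocount of 10.

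Leaving out 1 library at a time gave 1 to 2 members higher on day 1, 0 to 3 from day 4 to day 7 and 1 to 2 from day 7 to day 10, and 1 to 2 lower from day 10 to day 15. It gave 1 to 5 other junction genes lower on day 1 and 2 to 4 on day 7. The treated minus untreated difference of the CLDN4 to CLDN7 log2 ratio then ranged from -0.81 to -0.68.

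Changes of sign were all in comparisons that were not called, apart from F11R on day 1 (-0.02 with total scaling). With total scaling they were CLDN4 (-0.09) and CLDN7 (-0.08) on day 1 and MARVELD2 on day 7 (-0.04). From day 4 to day 7 TJP3 was -0.17 with quantile normalization, -0.03 with edgeR and -0.04 with DESeq2, and from day 10 to day 15 CGN was -0.05 with quantile normalization. With 1 library left out, CLDN1 from day 4 to day 7 ranged from -0.27 to 0.78, TJP1 from -0.24 to 0.02 and TJP3 from -0.33 to 0.46. CLDN4 on day 4 ranged from -0.08 to 0.02, MARVELD2 on day 7 from -0.02 to 0.43, OCLN from day 1 to day 4 from -0.09 to 0.09, MARVELD2 over the same step from -0.04 to 0.08, and CGN from day 10 to day 15 from -0.01 to 0.10.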
